A study of Mus musculus with 6 samples.

Results

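The levels of 10 genes of smooth muscle cells and pericytes were followed in salivary glands of mouse embryos: Acta2, Tagln, Cnn1, Myh11, Lmod1, Actg2, Myocd, Pdgfrb, Cspg4 and Rgs5. They were chosen by gene name, as known contractile and pericyte genes, and each of the 10 has a row among the 58116 features of the deposited count table. All glands were wild type and taken at embryonic day 13.5, and the poly(A) RNA of glands treated with BMP-2 at 0 ng/ml (control) or at 300 ng/ml was sequenced, with 3 libraries in each group. BMP-2 is a secreted growth factor of the TGF-beta family. The labels give neither the length of the treatment nor whether replicates had separate litters or dishes, so the p-values measure the spread between libraries, which may be technical. One column, whose name matches no sample's description, was placed among the treated libraries by the first letter of its name. With it that group has 3 columns for its 3 samples, but the remaining treated sample is described under another name. This column is named the unnumbered library here. Values of treated libraries are always given in the order replicate 1, replicate 2, unnumbered, and those of controls in the order replicate 1, 2, 3.

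Smooth muscle cells surround vessels, ducts and hollow organs and shorten through actin and a smooth muscle myosin. Their contractile genes are switched on by serum response factor (SRF) bound to CArG boxes in DNA, with myocardin, the product of Myocd, or the related MRTF proteins as partners. Pericytes wrap capillaries and depend on PDGF-B from the endothelium, which they sense through the receptor encoded by Pdgfrb. Several of these genes are not exclusive to either cell: activated fibroblasts, myoepithelial cells of glands and embryonic striated muscle can express Acta2, Tagln and Cnn1, and mesenchymal cells can express Pdgfrb and Cspg4. The 6 contractile genes tested here are therefore described apart from the pericyte genes.

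The DNA before the start site was at hand for 5 of the 10 genes (Acta2, Cnn1, Lmod1, Cspg4 and Rgs5), from RefSeq on build GRCm38.p6. It is shown for the 3 contractile genes among these, because CArG boxes are known in genes of this kind. Each line holds the 250 bases before the start site on the strand of the gene, 5′ to 3′, and capitals mark matches to the CArG box with 1 mismatch allowed. Acta2 lies at chr19:34255374-34255623 on the minus strand, Cnn1 at chr9:22099003-22099252 and Lmod1 at chr1:135324563-135324812, both on the plus strand.
Acta2: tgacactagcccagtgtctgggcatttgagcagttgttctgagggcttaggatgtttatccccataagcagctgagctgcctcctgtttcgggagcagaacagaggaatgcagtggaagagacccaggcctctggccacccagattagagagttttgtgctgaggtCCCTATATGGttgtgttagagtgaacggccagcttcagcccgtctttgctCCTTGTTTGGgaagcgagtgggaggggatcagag
Lmod1: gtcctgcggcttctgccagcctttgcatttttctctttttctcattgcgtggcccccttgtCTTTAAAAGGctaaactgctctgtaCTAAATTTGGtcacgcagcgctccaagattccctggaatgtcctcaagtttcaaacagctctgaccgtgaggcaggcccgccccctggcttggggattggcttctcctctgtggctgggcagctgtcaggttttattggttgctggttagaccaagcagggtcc
Cnn1: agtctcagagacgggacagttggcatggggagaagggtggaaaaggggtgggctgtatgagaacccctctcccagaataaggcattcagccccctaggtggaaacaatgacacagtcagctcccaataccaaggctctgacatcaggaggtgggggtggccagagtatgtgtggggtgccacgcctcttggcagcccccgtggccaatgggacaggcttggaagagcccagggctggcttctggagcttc

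None of the 5 windows held an exact CArG box, which 1.47% of 32851 windows of this length in the table hold. With 1 mismatch allowed, Acta2 held CCCTATATGG, which begins 84 bases before the start site, and CCTTGTTTGG, which begins 34 bases before it. These are the pair of imperfect CArG boxes for which the Acta2 promoter is known. Lmod1 held CTTTAAAAGG and CTAAATTTGG, 189 and 164 bases before the start, and Cspg4 held a pair of overlapping matches 238 and 237 bases before it. Cnn1 and Rgs5 held none, which says nothing about sites outside the window. The same loose pattern was found in 18.6% of all windows, so these matches describe the letters and are not evidence of binding. The box reads as the same pattern on both strands.

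Total counts were between 19724383 and 32473558 per library. Counts were scaled by library size and TMM factor to CPM, the usual depth-corrected unit in which libraries are compared. Of the 10 genes, 9 passed the low-count filter, which asks for 0.423 CPM in 3 libraries. Myocd passed in no library. Rgs5 passed through its 3 BMP-2 libraries and 2 of the controls. Genes that most cells use were also low in the table (Gapdh at 2004 to 3813 counts and the ribosomal protein gene Rpl13a at 25 to 83), so a low count does not by itself show a low level of the RNA. Gapdh and Rpl13a were chosen after their values were seen. Acta2 and Actg2 encode near-identical actins, and the sources used here do not say how reads matching several places were handled. Reads that could come from either gene, or from the striated muscle actin gene Actc1, are therefore uncertain. Actc1 had 0, 3 and 621 counts in the controls and 6910, 1069 and 4966 in the treated libraries. The libraries stood apart in skeletal muscle RNA as a whole: the summed level of the 14 markers with a row was 3.63, 3.45 and 96.8 CPM in the controls and 884, 201 and 942 CPM in the treated libraries. Of these 14, 1 passed the test described below, upward, as did 0.811% of all tested genes. This was Pax7, at 0, 2 and 1 counts in the controls, which passed the low-count filter through its treated libraries. In the same test 12 of the 14 were higher at an unadjusted p below 0.05, against 6.47% of all tested genes. All treated libraries were above all controls for 14 of 14, against 8.76% of all tested genes. DESeq2 called 4 and limma-voom 1, of 672 and 78 over all tested genes. Mymk, Mymx and Tnnc2 had 0 counts in control replicates 1 and 2.

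Levels per gene length, in CPM per kilobase, differed widely among the 10 genes. In the controls Acta2 was highest at 261 ± 33.0 CPM per kilobase (SD, n = 3, as for all means below), followed by Tagln at 111 ± 18.4, and by Pdgfrb at 31.5 ± 2.64 CPM per kilobase. Cnn1 (12.1 ± 2.38), Actg2 (10.3 ± 2.28) and Myh11 (9.89 ± 1.95 CPM per kilobase) came next and did not differ from each other beyond their spread. Lmod1 (3.09 ± 0.670) and Cspg4 (3.07 ± 0.348 CPM per kilobase) were also level with each other. Rgs5 was at 0.0828 ± 0.0232 and Myocd at 0.0143 ± 0.0158 CPM per kilobase. Among all tested genes Acta2 stood at the 98.9th percentile of control level per length and Rgs5 at the 1.58th. The actin and transgelin RNAs were thus abundant, while the RNAs of Myocd, a defining gene of smooth muscle, and Rgs5, a defining gene of pericytes, were nearly absent from the counts. Of 20 further mural genes listed, 2 (Higd1b and Foxc1) had 0 counts in every library. The 16 that passed the low-count filter included Notch3 at 232 ± 10.8 CPM in the controls. With BMP-2 the first 3 places were the same: Acta2 at 295 ± 68.2, Tagln at 131 ± 57.0 and Pdgfrb at 34.6 ± 1.78 CPM per kilobase.

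**Figure D1:**
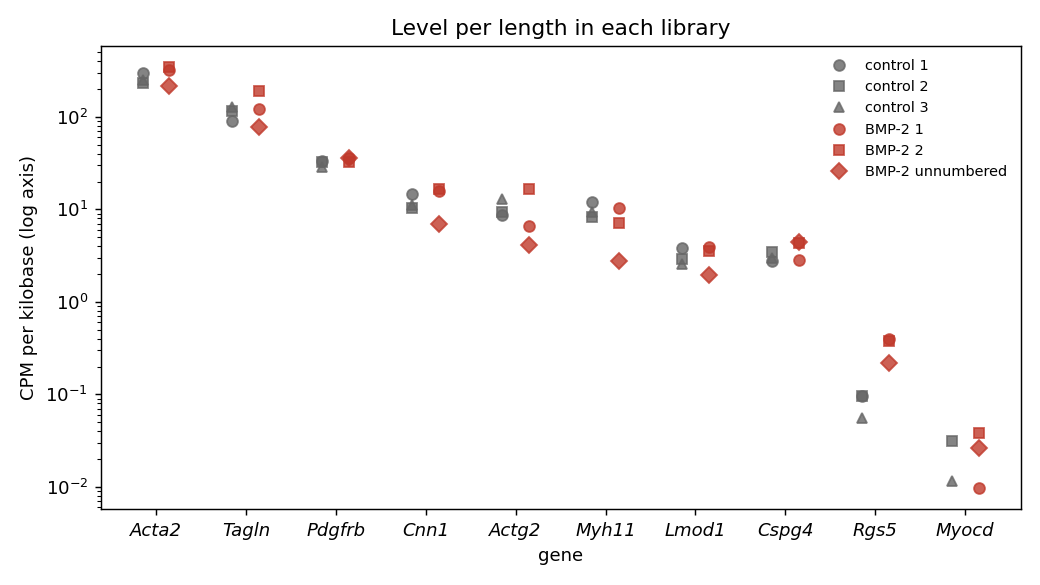
Level of the 10 genes in CPM per kilobase of gene length on a log axis, with 1 point per library (grey, control; red, BMP-2; points at 0 are not drawn, which removes Myocd in control replicate 1). Acta2 and Tagln lie highest, at control means of 261 and 111 CPM per kilobase, and Rgs5 and Myocd lie lowest, at 0.0828 and 0.0143.

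None of the 9 tested genes passed edgeR's quasi-likelihood test for a change with BMP-2 at an adjusted p (Benjamini-Hochberg, over all tested genes) of 0.05, where 0.911% of all 17006 tested genes did, 0.811% upward and 0.1% downward. At an unadjusted p below 0.05 there was 1 of the 9, Rgs5, which was higher, against 10.1% of all tested genes, or 6.47% counting only those that were higher. None of the 9 had all treated libraries below all controls, as 6.73% of all tested genes had, and 1 had all above. DESeq2 called 1 of the 9, again Rgs5, and limma-voom called 0. Over all 17006 tested genes DESeq2 called 672 and limma-voom 78, the background for every count by these methods below. The log2 change was positive for 7 of the 9 and negative for Myh11 and Actg2. Its median was 0.14, against -0.01 over all tested genes. The 95% intervals of the 6 contractile genes reach to both sides of 0, and that of Pdgfrb is the narrowest of the 9. In whole glands, fewer cells of a type and less RNA per cell cannot be told apart, which holds for every level below.

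**Figure D2:**
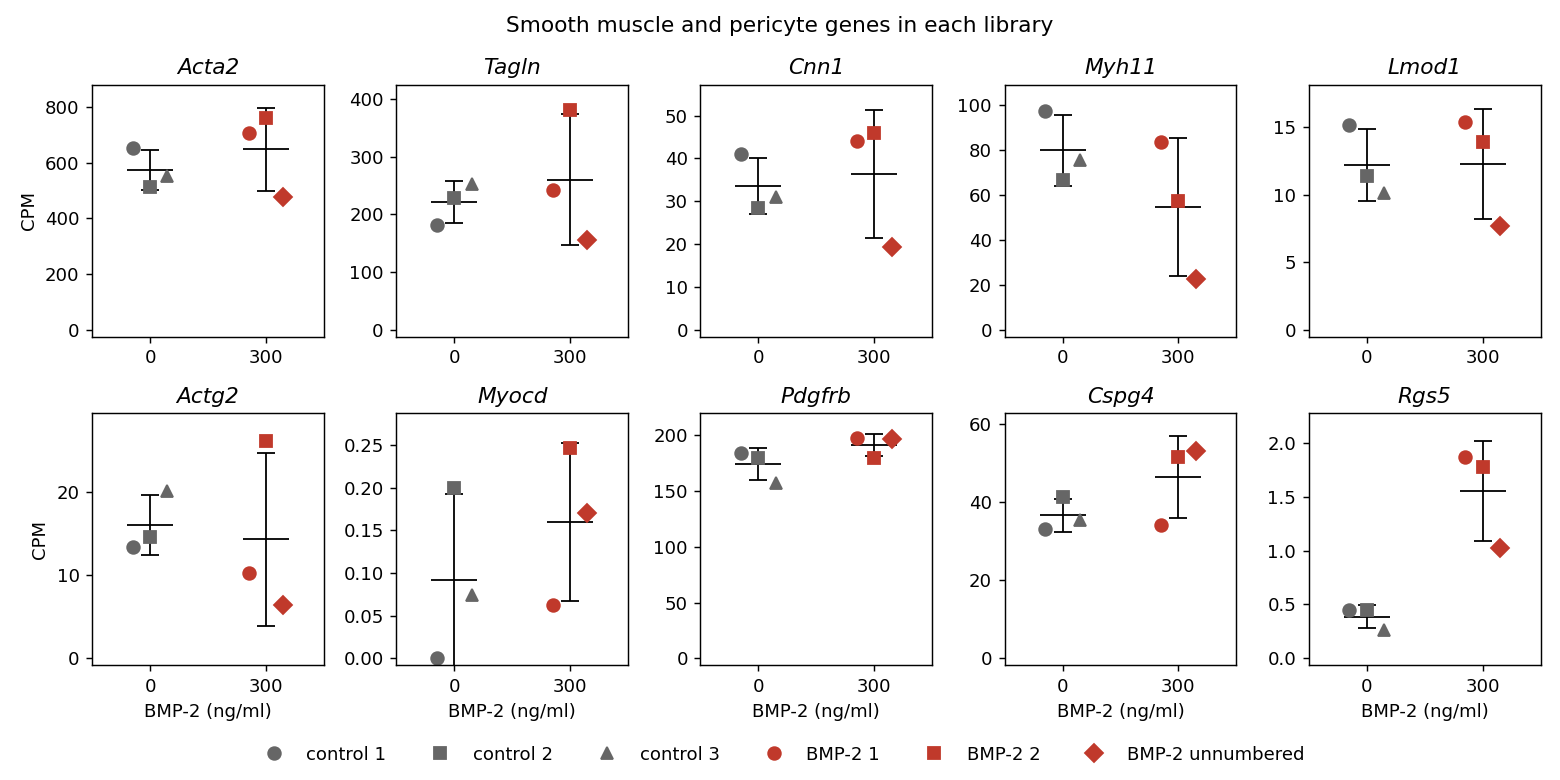
CPM of each gene in each library at 0 and 300 ng/ml BMP-2, on linear axes, with the group mean as a horizontal line and the SD (n = 3) as bars. Only in the panel of Rgs5 do the groups not overlap, and the unnumbered BMP-2 library (diamond) is the lowest point for Acta2, Tagln, Cnn1, Myh11, Lmod1 and Actg2.

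Acta2, which encodes smooth muscle alpha-actin, the main actin of the contractile filament in vascular smooth muscle, was at 653, 513 and 551 CPM in the controls. With BMP-2 it was at 705 CPM in replicate 1, 761 CPM in replicate 2 and 478 CPM in the unnumbered library. The groups overlapped, since the treated libraries included both the highest and the lowest of the 6 values. The log2 change was 0.18 (95% interval from -0.25 to 0.60, adjusted p = 0.912, edgeR). Without the unnumbered library the log2 change was 0.36, and without BMP-2 replicate 2 it was 0.05. Acta2 lies on chromosome 19 from 34218490 to 34232990, minus strand (GRCm39, whole gene span, as for all spans below).

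Tagln encodes transgelin, an actin-binding protein of smooth muscle. It was at 181, 228 and 253 CPM in the controls, and at 243, 381 and 156 CPM in the treated libraries. The treated values again enclosed the control values, and the log2 change was 0.23 (95% interval from -0.49 to 0.96, adjusted p = 0.945, edgeR). Without BMP-2 replicate 2 it was -0.15, and without the unnumbered library 0.50. Its row lies on chromosome 9 from 45840917 to 45847356 and overlaps Pcsk7 by 108 bases and the low row Gm48529 (45 to 75 counts), both on the other strand. The library kit keeps strand, but the sources used here do not say whether counting used it.

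Cnn1, which encodes calponin 1, an inhibitor of the myosin motor bound to actin, was at 41.0, 28.5 and 31.1 CPM in the controls. It was at 44.0, 46.0 and 19.3 CPM in the treated libraries. Replicates 1 and 2 were above every control and the unnumbered library below every control. The log2 change was 0.12 (95% interval from -0.64 to 0.88, adjusted p = 0.979, edgeR). It was 0.42 without the unnumbered library, and -0.04 and -0.08 without BMP-2 replicate 1 or 2. Cnn1 lies on chromosome 9 from 22010512 to 22020926, plus strand.

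Lmod1, which encodes leiomodin 1, a nucleator of actin filaments in smooth muscle, had the smallest log2 change of the 9, at 0.02 (95% interval from -0.61 to 0.65, adjusted p = 0.995, edgeR). Its values were 15.2, 11.4 and 10.1 CPM in the controls and 15.4, 13.9 and 7.72 CPM in the treated libraries. The order of the treated libraries was the same as for Myh11, with the unnumbered one lowest. The sign of the change rested on single libraries: it was 0.26 without the unnumbered library, 0.20 without control replicate 1 and between -0.17 and -0.03 without any other. Lmod1 lies on chromosome 1 from 135252545 to 135295803, plus strand.

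Myh11, which encodes the smooth muscle myosin heavy chain and is the most restricted marker of mature smooth muscle among these genes, was at 97.0, 66.5 and 75.4 CPM in the controls. With BMP-2 it was at 83.5 CPM in replicate 1, 57.2 CPM in replicate 2 and 22.4 CPM in the unnumbered library, so the treated libraries differed 3.72-fold among themselves and the controls 1.46-fold. The groups overlapped. The log2 change was -0.55 (95% interval from -1.67 to 0.57, adjusted p = 0.869, edgeR), and it was -0.18 without the unnumbered library and -1.0 without BMP-2 replicate 1. The gene lies on chromosome 16 from 14012399 to 14109236, minus strand. Relative to Acta2 in the same library, Myh11 counts were 14.9, 13.0 and 13.7% in the controls and 11.8, 7.51 and 4.70% in the treated libraries. This ratio did not overlap between the groups. It was picked after its values were seen and was not tested.

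Actg2, which encodes the gamma actin of visceral smooth muscle, varied most among the treated libraries. It was at 13.4, 14.6 and 20.1 CPM in the controls and at 10.2, 26.1 and 6.45 CPM in the treated libraries, a 4.04-fold range with BMP-2. The log2 change was -0.17 (95% interval from -1.34 to 1.0, adjusted p = 0.979, edgeR). It was 0.17 without the unnumbered library, 0.04 without control replicate 3, 0.02 without BMP-2 replicate 1 and -0.94 without BMP-2 replicate 2. Actg2 lies on chromosome 6 from 83489887 to 83513247, minus strand.

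Myocd, on chromosome 11 from 65067387 to 65160815, minus strand, was too low to be tested. It had 0, 4 and 2 counts in the controls and 2, 6 and 4 counts in the treated libraries. Over the group this was 6 counts against 12, a ratio of 1.67 with an exact 95% interval from 0.58 to 5.42 that covers counting error only. No difference was detectable at this depth. For the count of 0 in control replicate 1, the exact 95% interval for counting error reaches up to 0.184 CPM.

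The 6 contractile genes were alike in their lowest library but not in all others. In the unnumbered BMP-2 library 6 of 6 had their lowest value, as did 15.9% of all tested genes, and in BMP-2 replicate 2 the highest value was found for 4 of 6, against 16.7% of all tested genes. Summed over the 6 genes the level was 1001, 863 and 941 CPM in the controls and 1101, 1285 and 689.9 CPM in the treated libraries. Within the BMP-2 group the SD of log2 CPM was larger than within the controls for 8 of the 9 tested genes, Pdgfrb being the exception, where this held for 51.5% of all tested genes. The SD of log2 CPM was 0.28 in the controls and 0.97 with BMP-2 for Myh11, 0.31 and 1.02 for Actg2, and 0.18 and 0.36 for Acta2. This difference in spread was not tested. The closest pair was Cnn1 and Lmod1, whose centred log2 CPM differed by 0.13 on average over the 6 libraries, and Acta2 differed from them by 0.16 and 0.17. Other contractile pairs were farther apart: Acta2 was at 0.29 from Tagln and at 0.52 from Myh11 and from Actg2, but at 0.22 from the pericyte gene Pdgfrb. In BMP-2 replicate 1 the centred log2 CPM of Actg2 was -0.425, while those of the other 5 contractile genes were above 0.

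**Figure D3:**
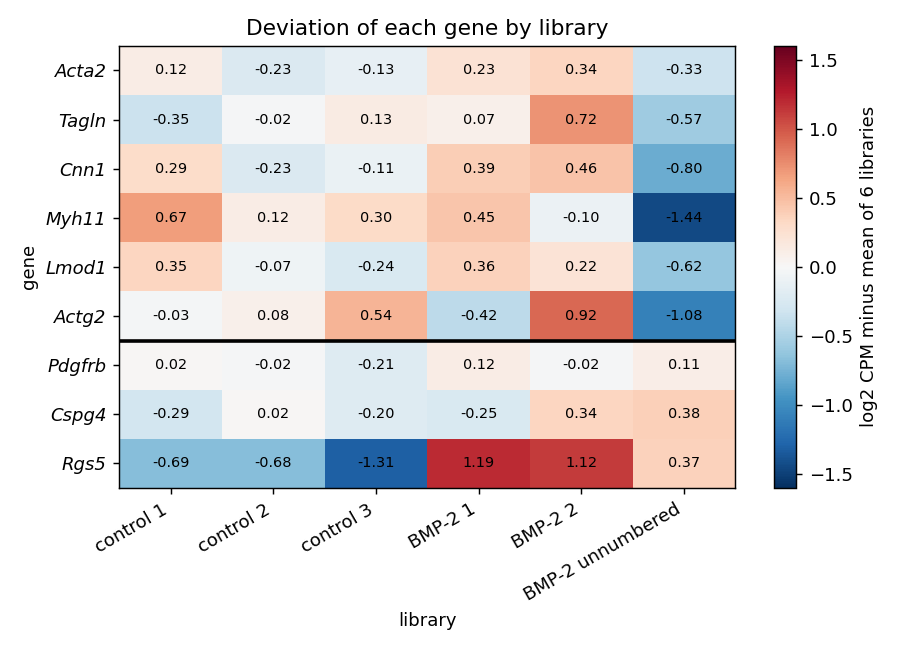
Log2 CPM of the 9 tested genes in each library minus the mean of the 6 libraries (prior count 2; red above, blue below the mean), contractile genes above the line and pericyte genes below it. The unnumbered BMP-2 library is below the mean for every contractile gene, down to -1.44 for Myh11, and above it for Pdgfrb, Cspg4 and Rgs5.

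Other cell types also differed between libraries. The summed level of 7 epithelial markers was 3669.9 to 4209 CPM in the controls and 3405, 4144 and 2928 CPM in the treated libraries, with 4 of 7 lowest in the unnumbered one. The sum of 7 basal and myoepithelial markers, from cells that can express contractile genes, was 1483 to 2184 CPM in the controls and 2434, 3242 and 1762 CPM in the treated libraries. Both sums, like that of the contractile genes, were highest among the treated libraries in replicate 2 and lowest in the unnumbered library. The sum of 10 fibroblast and mesenchymal markers was 6654 to 7963 CPM in the controls and 7533, 5359 and 8597 CPM in the treated libraries, lowest of the treated in replicate 2 and highest in the unnumbered library. In edgeR 0 epithelial, 0 basal and 0 fibroblast markers passed, with 0, 2 and 2 at an unadjusted p below 0.05, where DESeq2 called 0, 1 and 2 and limma-voom 0 of each. Their part in the contractile pattern was not tested.

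The pericyte genes Pdgfrb and Cspg4 were not low in the unnumbered library, and Rgs5 was lower there than in the other treated libraries. Pdgfrb, the receptor tyrosine kinase through which mural cells are recruited, was the steadiest of the 9. It was at 184, 179.6 and 157 CPM in the controls and at 197, 179.6 and 196 CPM in the treated libraries. The groups overlapped, with BMP-2 replicate 2 level with control replicate 2 and below control replicate 1. The log2 change was 0.14 (SE 0.102, 95% interval from -0.10 to 0.37, adjusted p = 0.831, edgeR), and it was 0.08 to 0.18 when any 1 library was left out. Cspg4 encodes NG2, a membrane proteoglycan of pericytes and of other immature mesenchymal cells. It was at 33.2, 41.3 and 35.3 CPM in the controls and 34.2, 51.6 and 53.0 CPM in the treated libraries. Only the latter pair lay above the controls. Its log2 change of 0.34 (95% interval from -0.07 to 0.74, adjusted p = 0.635, edgeR) did not pass the test, and it was 0.51 without BMP-2 replicate 1. Pdgfrb lies on chromosome 18 from 61178222 to 61218133 and Cspg4 on chromosome 9 from 56772317 to 56807154, both on the plus strand.

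Rgs5, a regulator of G protein signalling used as a pericyte marker, had the largest log2 change of the 9 but from a very low level. It had 9, 9 and 7 counts in the controls (0.448, 0.451 and 0.262 CPM). With BMP-2 it had 60 counts in replicate 1, 43 in replicate 2 and 24 in the unnumbered library (1.87, 1.77 and 1.02 CPM). All treated libraries lay above all controls, which was the case for 8.76% of all tested genes. The fitted log2 change was 2.01 (SE 0.425, 95% interval from 1.04 to 2.99) with an adjusted p of 0.0770, so Rgs5 did not pass the threshold in edgeR. DESeq2 gave the same size of change, 2.03, and called it (adjusted p = 0.0169), as did edgeR without a low-count filter (adjusted p = 0.0123), while limma-voom did not (adjusted p = 0.103). The summed counts, 25 against 127, give a ratio of 4.24 with an exact 95% interval from 2.75 to 6.80 for counting error only. Rgs5 lies on chromosome 1 from 169483070 to 169523382, plus strand, and overlaps no other row of the table.

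**Figure D4:**
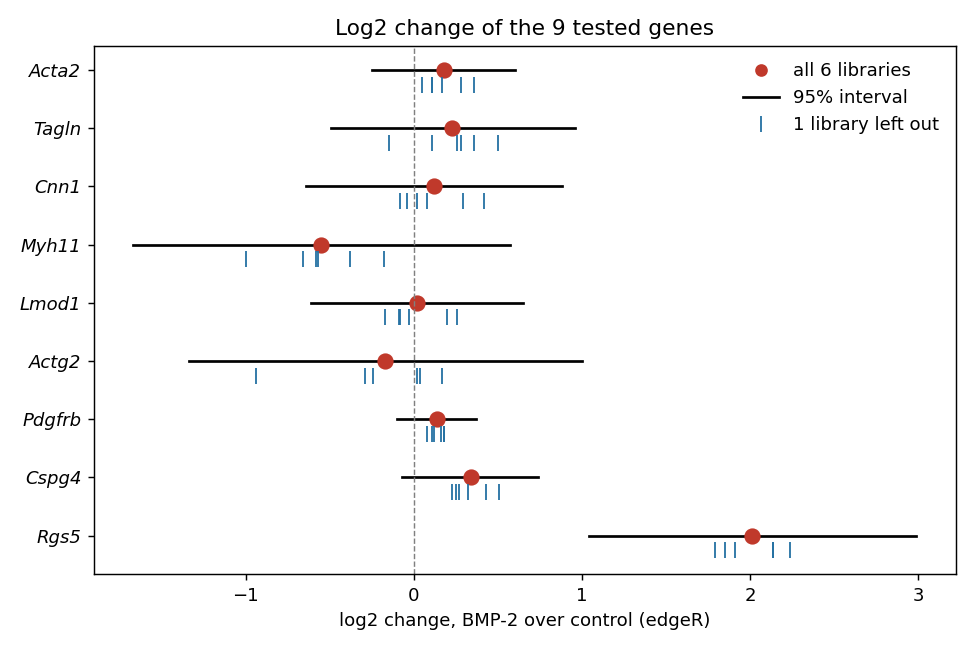
Log2 change of the 9 tested genes (red, all 6 libraries), its 95% interval (black) and the values with 1 library left out (blue ticks). The interval of Rgs5 runs from 1.04 to 2.99, and those of the other 8 genes include 0.

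Beside Rgs5, markers of other cells moved as follows. The sum of 12 endothelial markers, the cells that pericytes cover, was 45.6, 38.6 and 50.9 CPM in the controls and 53.8, 51.6 and 59.95 CPM in the treated libraries, with 0 of 11 tested members passing in edgeR, DESeq2 or limma-voom, and 0 at an unadjusted p below 0.05. All treated sums were above all control sums, by a much smaller margin than for Rgs5. Much of each sum was Eng, at 28.5, 21.8 and 23.7 CPM in the controls and 24.0, 32.5 and 29.0 CPM in the treated libraries. Of the 11 tested endothelial genes taken singly, 0 had all treated libraries above all controls. Of the skeletal muscle sums given above, the treated ones were also all higher. In the controls Rgs5 had 9, 9 and 7 counts. In the treated libraries Rgs5 was at 1.87, 1.77 and 1.02 CPM and the muscle markers at 884, 201 and 942 CPM. Within each group the exact 95% intervals of the Rgs5 values for counting error overlapped. The overlap was slight between BMP-2 replicate 1 (1.42 to 2.40 CPM) and the unnumbered library (0.652 to 1.52 CPM). The order of libraries by Rgs5 was not tested. Cartilage markers had sums of 84.9 to 102 CPM in the controls and 199.5 to 276 CPM in the treated libraries, again with no overlap. Of 6 tested members 4 passed in edgeR, all upward, against 0.811% of all tested genes, 6 in DESeq2 and 2 in limma-voom. All treated libraries were above all controls for 6 of 6, against 8.76% of all tested genes. The part of any of these cell types in the Rgs5 values was not tested. Cardiac muscle markers were at 1.59 to 4.15 CPM in sum, with Nppa at 0 in every library.

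Of 20 other contractile and cytoskeletal genes of smooth muscle 19 were tested. Synpo2, which encodes the actin-bundling protein synaptopodin 2, passed in edgeR, upward, 18 did not pass, and the median log2 change was 0.10. At an unadjusted p below 0.05 in edgeR 4 of the 19 were higher, against 6.47% of all tested genes. All treated libraries were above all controls for 5 of the 19, against 8.76% of all tested genes. DESeq2 called 3 (Synpo2, Tpm2 and Pdlim3) and limma-voom 0. The largest log2 change of the 19 was that of Des, 2.12 (adjusted p = 0.340, edgeR). Synpo2 was at 8.81, 7.21 and 7.67 CPM in the controls and 15.8, 16.4 and 13.7 CPM in the treated libraries, with no overlap. Its log2 change was 0.95 (SE 0.160, adjusted p = 0.0420, edgeR). The part of skeletal muscle in its values was not tested. The call was lost whichever single library was left out (adjusted p from 0.0867 without control replicate 3 to 0.169 without control replicate 2) and with limma-voom (0.0525). Of the 19 genes, 10 had their lowest value in the unnumbered BMP-2 library, as the 6 contractile genes above did. Flna and Tpm1, the most abundant of the 19 by mean CPM, had log2 changes of -0.04 and 0.00. Tpm2, a beta-tropomyosin gene that skeletal muscle also uses, was picked with its values known. It was at 81.1, 71.8 and 79.5 CPM in the controls and 169, 103 and 158 CPM in the treated libraries, lowest of the 3 where muscle RNA was lowest. Its log2 change of 0.89 did not pass (adjusted p = 0.0722 in edgeR and 0.000264 in DESeq2). The part of skeletal muscle in the Tpm2 values was not tested.

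Among regulators of the contractile programme the test was passed by 0 of 12 tested genes by edgeR, with 3 higher at an unadjusted p below 0.05, 2 by DESeq2 and 0 by limma-voom. The RNA of SRF itself, from Srf, was at 86.0 ± 4.03 CPM in the controls and 81.0 ± 14.6 CPM in the treated libraries (log2 change -0.08, 95% interval from -0.40 to 0.23, adjusted p = 0.958, edgeR). Foxo4, a forkhead factor known to repress myocardin activity, had 113 ± 5.68 and 111 ± 20.9 CPM in the same groups. Mrtfa and Mrtfb, the myocardin relatives, were at 63.8 ± 1.06 and 87.7 ± 7.20 CPM in the controls, so their RNAs were present where that of Myocd was scarcely counted. The pair called by DESeq2 were Mef2c and Klf4. Mef2c encodes a MADS-box factor of muscle lineages. It was at 24.8, 21.2 and 23.5 CPM in the controls and 85.9, 37.6 and 74.5 CPM in the treated libraries (log2 change 1.51, adjusted p = 0.0651, edgeR). Among the treated libraries it was again lowest where muscle RNA was lowest, and the part of skeletal muscle was not tested. Klf4, a zinc-finger factor that represses contractile genes in vascular smooth muscle and is also expressed in epithelium, was at 35.3, 38.2 and 58.4 CPM and then 75.9, 114 and 94.3 CPM (log2 change 1.10, adjusted p = 0.0729, edgeR). Mrtfa, Mrtfb, Mef2c and Klf4 were picked with their values known.

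Of 20 other pericyte and mural genes 16 were tested, 1 passed in edgeR, upward, 15 did not pass and the median log2 change was 0.23. The gene that passed was Aspn, a matrix proteoglycan gene that fibroblasts also express. It was at 21.1, 17.9 and 18.7 CPM in the controls and 104, 118 and 86.7 CPM in the treated libraries. Its log2 change was 2.42 (SE 0.140, adjusted p = 0.00125, edgeR). The part of cartilage, which can also express Aspn and whose markers are given above, was not tested. Notch3, the Notch receptor of mural cells and the most abundant of the 16, had 232 ± 10.8 CPM in the controls and 259 ± 32.3 CPM in the treated libraries (log2 change 0.16, 95% interval from -0.11 to 0.43, adjusted p = 0.818, edgeR). Vtn, which encodes vitronectin, and Cox4i2, a subunit of mitochondrial respiration with high levels in pericytes, were picked with their values known, and neither passed in edgeR. Vtn was at 10.7, 9.86 and 9.84 CPM in the controls and 5.88, 4.94 and 3.05 CPM with BMP-2, a log2 change of -1.12 (adjusted p = 0.0934, edgeR; 0.00235 in DESeq2). Cox4i2 was at 1.05, 0.601 and 0.748 CPM and then 2.27, 2.14 and 2.08 CPM, a log2 change of 1.44 (adjusted p = 0.0950, edgeR; 0.0245 in DESeq2). Neither gene overlapped between groups, with opposite signs, as 15.5% of all tested genes did not in either direction. Of the 16 tested mural genes, 2 had all treated libraries above all controls and 1 had all below.

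The PDGF ligands and other PDGF receptors gave 0 of 6 calls in edgeR, with 2 higher at an unadjusted p below 0.05, 1 call in DESeq2 (Pdgfrl) and 0 in limma-voom. Pdgfra, the receptor of mesenchymal fibroblasts, was at 269.8 ± 25.5 CPM in the controls and 242 ± 41.2 CPM with BMP-2 (log2 change -0.16, adjusted p = 0.881, edgeR). Pdgfb, which encodes the ligand of the Pdgfrb product, was picked with its values known, and it had 47.5 ± 6.91 and 55.3 ± 11.9 CPM (log2 change 0.22, adjusted p = 0.845, edgeR).

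Among the relatives of the contractile genes, Lmod2, the leiomodin of cardiac and skeletal muscle, was the 1 of 5 tested actin and leiomodin genes that passed in edgeR, upward. It was at 4.23, 2.50 and 2.80 CPM in the controls and 7.31, 12.6 and 17.0 CPM in the treated libraries (log2 change 1.95, SE 0.346, adjusted p = 0.0489, edgeR). Of the 6 fits that each leave out 1 library, only that without BMP-2 replicate 1 kept the call (adjusted p = 0.0248), and the others gave 0.0876 without BMP-2 replicate 2, 0.1 without control replicate 3, 0.111 without control replicate 1, 0.148 without the unnumbered library and 0.184 without control replicate 2. The skeletal muscle markers, at 884, 201 and 942 CPM in the same treated libraries, were also higher than in the controls. Both they and Lmod2 were highest in the unnumbered library. Of BMP-2 replicates 1 and 2, the markers were higher in replicate 1 and Lmod2 in replicate 2. The part of skeletal muscle in the Lmod2 values was not tested. In the unnumbered library Lmod2 was at its highest and the smooth muscle gene Lmod1 at its lowest of the 6 libraries. Lmod2 also missed the threshold with library totals as the scaling (adjusted p = 0.0541), the stricter filter (0.0519), no robust option (0.0520) and limma-voom (0.0994). Actc1 and Lmod3, picked with their values known, had larger log2 changes than Lmod2, 4.27 and 4.05. Neither passed in edgeR (adjusted p = 0.563 and 0.280). For 3 of the 5 genes, Lmod2, Actc1 and Lmod3, all treated libraries were above all controls, against 8.76% of all tested genes. The part of skeletal muscle in the Actc1 and Lmod3 values was not tested. The cytoskeletal actin genes Actg1 and Actb had log2 changes of 0.00 and -0.08. Of 4 calponin and transgelin genes and 3 non-muscle myosin genes none passed in edgeR, DESeq2 or limma-voom, and none had an unadjusted p below 0.05 in edgeR.

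The genes whose library pattern was most like that of Acta2, by the mean absolute difference in centred log2 CPM over the 6 libraries, were Pde4a (0.026), Cdc42ep3 (0.036), Ttc28 (0.052), Pgr (0.067) and Sod3 (0.070), out of 13640 compared. For Pdgfrb they were Zbed3 (0.022), Mrps36 (0.027), Evc2 (0.027), Gdi2 (0.030) and Psmd7 (0.032). Acta2 spanned 0.67 and Pdgfrb 0.33 on the log2 scale over the libraries. None of these 10 genes was among the 155 that passed in edgeR.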

How the data were processed

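The authors deposited 1 table of raw counts (whole reads for each gene, not normalized) with gene spans and lengths. Cutadapt 2.9, HISAT2 2.2.0, featureCounts and the build GRCm39 are named in the submitters' processing notes. Total counts were 19724383 to 32473558 per library. No pair of replicates was 1 library deposited again: chi-square over genes, divided by its degrees of freedom, was 13.6 to 42.3.

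Counts were tested in R 4.3.3 with edgeR 4.0.16 (quasi-likelihood, with the robust option, TMM scaling and filterByExpr) on 17006 genes, with Benjamini-Hochberg adjustment over all of them and a threshold of 0.05. The model has 4 residual degrees of freedom and a common biological coefficient of variation of 0.214, and the script was tested on simulated data. Log2 values used a prior count of 2. Alternatives were DESeq2 1.42.0, limma-voom (limma 3.58.1), other scalings and filters, the replicate number as a block, and fits that each omit 1 library. The 10 genes, the other lists and the tests were chosen with earlier results of these data known. Besides the 10, the rule names up to 4 called genes of each list of related genes, or its 2 most abundant where none was called, and the 5 genes closest in pattern to Acta2 and to Pdgfrb, though not all of these are printed. Every other gene named was picked with its values known, including Flna, Tpm1, Notch3, Actg1, Actb and the single cell type markers named. Acta1 was not analysed here. The reference sequences are on GRCm38.p6 and no coordinates were converted.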

Additional observations from a re-analysis of the deposited data

How the results depend on the processing

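None of the 9 tested smooth muscle and pericyte genes passed under the other scalings, under the stricter filter, without the robust option, with limma-voom, with the replicate block or without any single library (0 to 0). Here 1 of them, Rgs5, passed with no low-count filter and 1 with DESeq2. The log2 change of Rgs5 ran from 1.79 to 2.24 when 1 library was left out, with adjusted p from 0.124 to 0.222. Among the 65 tested genes of the other lists 3 passed, where 8 did with no low-count filter, 10 with DESeq2, 1 with limma-voom, 9 with the replicate block, and 1 to 3 without 1 library. Over all genes 155 passed, where 552 did with no low-count filter, 672 with DESeq2, 78 with limma-voom, 540 with the replicate block, and 20 (without control replicate 1), 21 (without control replicate 2), 29 (without the unnumbered library), 94 (without BMP-2 replicate 1), 135 (without BMP-2 replicate 2) and 151 (without control replicate 3) with 1 library left out. The causes were not tested. The block used the 4 libraries whose numbers 1 and 2 occur in both groups, where same-numbered libraries deviated together (correlation 0.40 over genes); with 2 pairs, the numbers are not shown to pair the samples. Under the block the log2 change of Actg2 turned to 0.24, and those of Tagln, Acta2 and Cnn1 were 0.59, 0.35 and 0.40 (adjusted p = 0.0518, 0.282 and 0.312, edgeR). The block, which lacks the unnumbered library, called Tpm2, Mef2c and Klf4 and lost Lmod2 (log2 change 1.54, adjusted p = 0.0970). When 1 library was left out, signs turned for Lmod1 (-0.17 to 0.26), Actg2 (-0.94 to 0.17), Cnn1 (-0.08 to 0.42) and Tagln (-0.15 to 0.50), all uncalled, with control libraries alone moving them up to 0.20, 0.04, 0.29 and 0.36; Acta2 (0.05 to 0.36), Myh11 (-1.0 to -0.18), Pdgfrb (0.08 to 0.18) and Cspg4 (0.23 to 0.51) kept theirs. With 1 mismatch allowed, 3 promoter windows held a CArG box, and 0 without. Depth limits Myocd and Rgs5.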
